A study of Mus musculus with 14 samples.

Results

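The genes described are those that encode nuclear subunits of mitochondrial complex I, measured in embryonic mouse hearts that lacked the transcription factors Irx3, Irx5 or both. Members were all genes whose symbol begins with Ndufa, Ndufb, Ndufc, Ndufs or Ndufv, without the assembly factors of the Ndufaf series, among probe sets paired with exactly 1 gene symbol. This gave 36 genes, represented by 41 probe sets, of 19931 genes and 28763 probe sets in all, and a gene with several probe sets was represented by its brightest probe set on average. The rule for membership uses symbols and no expression value, but the family was chosen with earlier results of these data known. By textbook structure, 15 members encode subunits of the peripheral arm and 18 encode subunits of the membrane arm. The other 3 carry the family name but have a shared or different place. Ndufab1 encodes the mitochondrial acyl carrier protein, which sits in both arms. Ndufa4 encodes a protein now assigned to cytochrome c oxidase, and Ndufa4l2 encodes a paralogue of it that is not a subunit of the complex.

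RNA of hearts from mouse embryos at E12.5, the embryonic day, was hybridised to 14 Affymetrix arrays of the Mouse Gene 1.0 ST type. There were 4 arrays of Irx3-/-;Irx5-/- hearts (double mutants), 3 of Irx5-/- hearts, 4 of Irx3-/-;Irx5+/- hearts and 3 of Irx5+/- hearts, and the series text names the Irx5+/- hearts as the reference. Every group, the Irx5+/- hearts included, carries at least 1 mutant copy of Irx5, and the labels name no Irx3 mutation in the Irx5-/- and Irx5+/- hearts. Nothing in the labels tells whether hearts were pooled or each came from its own embryo, so the p-values speak only of the spread among these arrays. All values are the authors' log2 intensities, on which a difference of 1 is a fold of 2.

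Complex I is the entry point of the respiratory chain: it takes electrons from NADH, passes them to ubiquinone and pumps protons across the inner mitochondrial membrane. The peripheral arm reaches into the matrix and holds the flavin and the iron-sulfur clusters along which the electrons travel, while the membrane arm holds the proton channels. The core is conserved from bacteria, its membrane part is encoded by mitochondrial DNA, and the many accessory subunits around it are encoded in the nucleus. Heart muscle packs its cells with mitochondria as it matures, and transcripts of respiratory chain subunits are abundant in cardiomyocytes.

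The labels were first set against the data. The cardiac actin gene Actc1 ran from 12.86 to 13.77 over the 14 arrays and the cardiac troponin T gene Tnnt2 from 12.85 to 13.71, as in a heart sample. Both were lowest on Irx5+/- replicate 3. Some other muscle genes varied more, such as Actn2, from 8.68 on that array to 12.61 on Irx5-/- replicate 2. Tpm1 varied less, from 12.44 to 12.90. The Irx3 signal ran from 7.60 to 7.86 in double mutants, from 8.14 to 8.25 in Irx5-/- hearts, from 7.87 to 8.17 in Irx3-/-;Irx5+/- hearts and from 8.43 to 8.53 in Irx5+/- hearts. The Irx5 signal ran from 7.52 to 8.43 in double mutants, 7.86 to 8.34 in Irx5-/- hearts, 8.21 to 8.31 in Irx3-/-;Irx5+/- hearts and 8.19 to 8.41 in Irx5+/- hearts, so those ranges overlapped. Neither probe set is known to lie in a deleted part, and one outside it checks nothing. For Irx3-/-;Irx5+/- replicate 4 the labels disagree: the description names Irx5-/-, and the title and genotype do not. Its Irx3 signal of 8.17 lay inside the range of the Irx5-/- arrays. Its mean of the endothelial and endocardial markers described below, 0.51, lay above all Irx5-/- arrays (-0.51 to -0.16). Which label holds was not tested. Counts and medians of complex I genes in the comparisons of Irx3-/-;Irx5+/- hearts, and in the interaction, are therefore also given without this array. Results on other gene lists, and the fit described below with the sarcomere mean as a term, include it.

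Across the 4 genotypes, complex I transcripts were on average highest in double mutants and lowest in Irx5+/- hearts, and no single gene passed the test. The mean over the 36 genes, relative to their mean over 14 arrays, was 0.22 ± 0.14 in double mutants (SD, n = 4), 0.09 ± 0.43 in Irx5-/- hearts (n = 3), -0.03 ± 0.20 in Irx3-/-;Irx5+/- hearts (n = 4) and -0.34 ± 0.27 in Irx5+/- hearts (n = 3). Array by array, this mean was 0.06, 0.16, 0.39 and 0.28 in double mutants. It was -0.18, 0.58 and -0.15 in Irx5-/- hearts and 0.22, -0.06, -0.25 and -0.04 in Irx3-/-;Irx5+/- hearts. In Irx5+/- hearts it was -0.04, -0.42 and -0.56. All 4 double mutant arrays lay above all 3 Irx5+/- arrays, while Irx5-/- replicate 2 was the highest of all 14 and Irx5+/- replicate 3 the lowest. Both of those arrays stand apart, and the counts and medians of the comparisons with Irx5+/- hearts are also given without them.

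The mean of 31 sarcomere genes, which encode the contractile filaments of cardiomyocytes, moved in step with it. That mean was 0.18, 0.26, 0.64 and 0.46 in double mutants, -0.21, 0.83 and -0.30 in Irx5-/- hearts, 0.37, 0.04, -0.41 and 0.23 in Irx3-/-;Irx5+/- hearts and 0.07, -0.63 and -1.53 in Irx5+/- hearts. Over the 14 arrays, which share this processing and the same order of genotypes, the complex I mean and the sarcomere mean correlated with r = 0.945 (Spearman's rho 0.982). Without Irx5+/- replicates 2 and 3, the pair farthest from the median sarcomere mean, r was 0.966 over 12 arrays. With each array taken as its deviation from its own group mean, r was 0.916, so the pattern was also present among arrays of 1 genotype. A step of 1 in the sarcomere mean went with a step of 0.491 in the complex I mean. In these whole hearts, a smaller share of muscle cells and less transcript per muscle cell cannot be told apart.

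**Figure D1:**
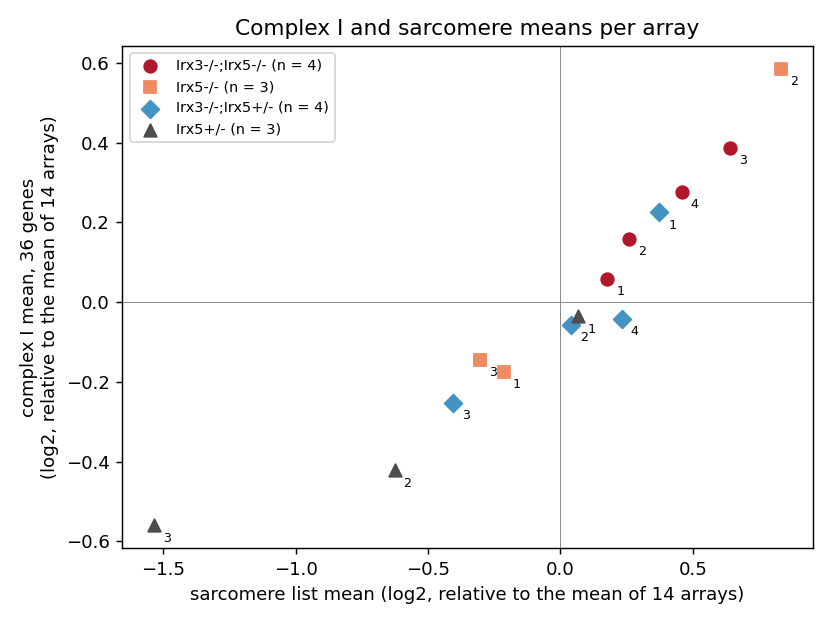
Mean of 36 complex I genes per array (vertical axis, log2 relative to the mean of 14 arrays) against the mean of 31 sarcomere genes per array (horizontal axis, same scale), with symbols for the 4 genotypes and replicate numbers beside the points. The points lie along 1 line (r = 0.945), from Irx5+/- replicate 3 at -1.53 and -0.56 to Irx5-/- replicate 2 at 0.83 and 0.58 (sarcomere mean, then complex I mean).

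Other cell types of the heart were followed through their markers. The mean of 15 endothelial and endocardial markers ran from -0.83 to 0.17 in double mutants, from -0.51 to -0.16 in Irx5-/- hearts, from 0.05 to 0.51 in Irx3-/-;Irx5+/- hearts and from 0.33 to 0.63 in Irx5+/- hearts. All 15 lay below 0 in double mutants and in Irx5-/- hearts against Irx5+/- hearts, with medians of -0.79 and -0.74, and 14 of 15 in Irx3-/-;Irx5+/- hearts (median -0.16). None of the 15 was called in any of those comparisons (limma), and 14, 13 and 2 were lower at an unadjusted p under 0.05, where 5.56%, 4.66% and 2.22% of all genes were. Without Irx5-/- replicate 2, 1 of the 15 was called in double mutants, as were 42 of all 19931 genes. Without either array that stands apart or both, settings chosen for the lists after seeing the data, the medians lay from -0.84 to -0.79 in double mutants, from -0.80 to -0.76 in Irx5-/- hearts and from -0.20 to -0.16 in Irx3-/-;Irx5+/- hearts. This mean correlated with the complex I mean at r = -0.516 over 14 arrays. Of 10 erythroid markers 6 were measured, and their mean ran from -0.57 to 1.27 in double mutants, -0.60 to -0.32 in Irx5-/- hearts, -0.30 to 0.84 in Irx3-/-;Irx5+/- hearts and -0.43 to -0.34 in Irx5+/- hearts, with r = 0.12 against complex I. The 8 epicardial markers ran from -0.55 to 1.19 in double mutants, -0.96 to 0.68 in Irx5-/- hearts, -0.49 to 0.16 in Irx3-/-;Irx5+/- hearts and -0.35 to 0.06 in Irx5+/- hearts (r = -0.294). The 10 smooth muscle and mesenchyme markers ran from -0.03 to 0.26 in double mutants, -0.53 to 0.36 in Irx5-/- hearts, -0.27 to 0.09 in Irx3-/-;Irx5+/- hearts and -0.08 to 0.03 in Irx5+/- hearts (r = -0.397). The 8 macrophage markers ran from -0.17 to 0.11 in double mutants, -0.26 to 0.59 in Irx5-/- hearts, -0.11 to 0.10 in Irx3-/-;Irx5+/- hearts and -0.03 to 0.01 in Irx5+/- hearts (r = 0.483). Without the 2 arrays farthest from the median of the list, r over 12 arrays was -0.303 for endothelial and endocardial markers. It was -0.09 for erythroid and -0.148 for epicardial markers. Without Irx5-/- replicates 1 and 2, the farthest for both lists, r was 0.021 for smooth muscle and mesenchyme and -0.049 for macrophage markers. The part of these cell types in the complex I values was not tested.

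Loss of both Irx genes was asked about by setting double mutants against Irx5+/- hearts. Of the 36 complex I genes, 35 lay higher in double mutants, with a median log2 difference of 0.58 and a range of -0.01 to 0.97. Over all 19931 genes the median was -0.03 and 43.9% lay higher. None of the 36 was called at an adjusted p under 0.05 in limma, where 0.0201% of all genes were (4 genes). At an unadjusted p under 0.05, 24 of 36 were higher and 0 lower, against 7.90% and 5.56% of all genes, and in 17 of 36 all 4 double mutant arrays lay above all 3 Irx5+/- arrays, against 6.48% of all genes. The peripheral arm had a median of 0.58 and the membrane arm of 0.58, so the arms did not stand apart. The smallest adjusted p, 0.122, belonged to Ndufv2. The count of 24 was 16 without Irx5+/- replicate 3, where the median was 0.43 and 5.89% of all genes were higher at that level. There 31 of the 36 differences were smaller than with all arrays, with Ndufv2 at 0.78, Ndufs6 at 0.83 and Ndufab1 at 0.60 against 0.97, 0.95 and 0.93, and Ndufs6 and no longer Ndufv2 was the highest. Irx5-/- replicate 2 is in neither group but shares in the estimate of the spread, and in the fit without it 1 member, Ndufv2, was called (limma, adjusted p = 0.0488). In that fit 42 of all 19931 genes were called, against 4 with all arrays.

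Loss of the second copy of Irx5 was asked about by setting Irx5-/- against Irx5+/- hearts. Here 35 of 36 complex I genes lay higher, with a median of 0.45 and a range of -0.19 to 0.74, against a median of -0.03 and 44.4% higher over all genes. None was called in limma, and 0% of all genes were. At an unadjusted p under 0.05, 13 of 36 were higher and 0 lower, against 5.99% and 4.66% of all genes. In 6 of 36 all Irx5-/- arrays lay above all Irx5+/- arrays and in 0 all lay below, against 6.71% and 9.52% of all genes. These values leaned on Irx5-/- replicate 2: without it the median was 0.19 and 2 members had an unadjusted p under 0.05. There 4.34% of all genes were higher at that level, a share near that of the members. Without Irx5+/- replicate 3 the count of 13 was 5 (4.72% of all genes). It was 23, 21 and 21 without Irx5+/- replicate 1, Irx5-/- replicate 1 or Irx5-/- replicate 3 (6.73%, 5.66% and 6.94% of all genes). With both of the arrays that stand apart left out, a setting chosen after seeing the data, the median was 0.08 and 25 of 36 lay higher.

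Loss of Irx3 with 1 copy of Irx5 kept was asked about by setting Irx3-/-;Irx5+/- against Irx5+/- hearts. The median was 0.33, with a range of -0.20 to 0.69 and 33 of 36 members above 0, against a median of 0.0001 and 50.0% of all genes. Again 0 members and 0% of all genes were called in limma. At an unadjusted p under 0.05, 8 of 36 were higher and 0 lower, against 2.85% and 2.22% of all genes. In 7 of 36 all Irx3-/-;Irx5+/- arrays lay above all Irx5+/- arrays and in 0 all lay below, against 2.86% and 2.87% of all genes. The count of 8 was 3 without Irx5+/- replicate 3 (2.35% of all genes) and 5 without Irx5+/- replicate 2 (3.22%). Leaving out Irx3-/-;Irx5+/- replicate 1 gave 4 (2.23%). It was 19 without Irx5+/- replicate 1 (3.55%) and 14 without Irx5-/- replicate 2 (3.44%). Without the array whose description names another genotype, the median was 0.31 and the count 6 (2.40% of all genes). All comparisons with Irx5+/- hearts share the same 3 arrays, so their likeness in direction is no independent evidence.

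**Figure D2:**
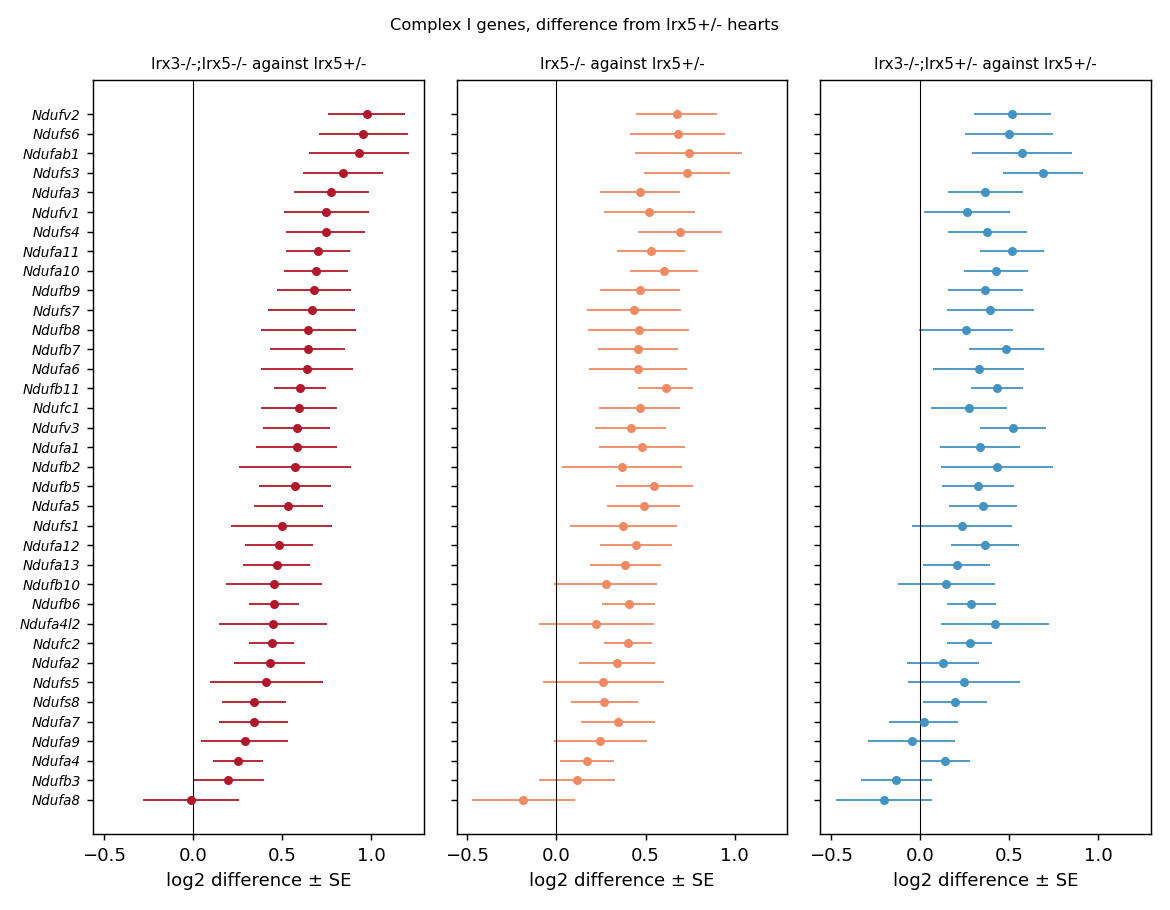
Log2 difference from Irx5+/- hearts for each of 36 complex I genes (points, with bars of 1 SE from limma), in double mutants (left), Irx5-/- hearts (middle) and Irx3-/-;Irx5+/- hearts (right), with genes ordered by the double mutant value. Nearly all points lie right of 0 in each panel, Ndufa8 lies at or left of 0 in all 3, and no difference was called.

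A moderated F test in limma over the 4 genotypes called 0 of 36 members and 1 of 19931 genes (0.00502%). Its smallest adjusted p among members was 0.329, for Ndufb11, and 14 of 36 had an unadjusted F p under 0.05, against 9.32% of all genes. The count of 14 was 3 without Irx5+/- replicate 3 (7.70% of all genes) and 20 without Irx5-/- replicate 2 (10.7%).

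The peripheral arm is described from the core subunits that carry electrons outward. Ndufv2 encodes an iron-sulfur subunit beside the NADH binding site. Its log2 intensity was 11.16, 11.19, 11.40 and 11.44 in double mutants, 10.77, 11.51 and 10.72 in Irx5-/- hearts, 11.13, 10.78, 10.63 and 10.85 in Irx3-/-;Irx5+/- hearts and 10.78, 10.26 and 9.94 in Irx5+/- hearts. All double mutant arrays lay above all Irx5+/- arrays and above all Irx3-/-;Irx5+/- arrays, and Irx5-/- replicate 2 was the highest of the 14. The difference from Irx5+/- hearts was 0.97 ± 0.21 (SE) in double mutants, a fold of 1.96, and it did not pass (limma, adjusted p = 0.122). It was 0.67 ± 0.23 in Irx5-/- hearts (adjusted p = 0.36 in limma) and 0.52 ± 0.21 in Irx3-/-;Irx5+/- hearts (adjusted p = 0.956).

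Ndufv1 encodes the subunit that holds the flavin and takes the electrons from NADH. It measured 11.02, 10.97, 11.17 and 11.07 in double mutants, 10.45, 11.49 and 10.56 in Irx5-/- hearts, 10.89, 10.41, 10.20 and 10.78 in Irx3-/-;Irx5+/- hearts and 10.70, 10.03 and 10.20 in Irx5+/- hearts. Double mutant arrays were tightly grouped and lay above both the Irx5+/- and the Irx3-/-;Irx5+/- arrays. Their difference from Irx5+/- hearts was 0.75 ± 0.24 (SE, limma adjusted p = 0.211) and from Irx3-/-;Irx5+/- hearts 0.48 ± 0.22 (adjusted p = 0.645).

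Ndufs3 encodes a core subunit of the module that hands electrons on to ubiquinone. Its values were 11.43, 11.51, 11.81 and 11.70 in double mutants, 11.04, 12.13 and 11.33 in Irx5-/- hearts, 11.34, 11.61, 11.26 and 11.63 in Irx3-/-;Irx5+/- hearts and 11.09, 10.79 and 10.43 in Irx5+/- hearts. Double mutant and Irx3-/-;Irx5+/- arrays all lay above the Irx5+/- arrays, whereas 1 Irx5-/- array lay inside their range. The differences were 0.84 ± 0.22 in double mutants, 0.73 ± 0.24 in Irx5-/- hearts and 0.69 ± 0.22 in Irx3-/-;Irx5+/- hearts (SE, limma adjusted p = 0.164, 0.357 and 0.853), the last being the largest of any member in that genotype.

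Ndufs1, the subunit with the most iron-sulfur clusters, stood at 10.77, 10.85, 11.32 and 11.05 in double mutants, 10.52, 11.60 and 10.51 in Irx5-/- hearts, 11.16, 10.69, 10.18 and 10.93 in Irx3-/-;Irx5+/- hearts and 10.82, 10.55 and 10.14 in Irx5+/- hearts. Its groups overlapped throughout, with a difference of 0.50 ± 0.28 in double mutants against Irx5+/- hearts (limma, adjusted p = 0.477). Ndufs7, which holds the last cluster of the chain next to ubiquinone, stood at 9.68, 9.97, 10.29 and 9.94 in double mutants, 9.33, 10.44 and 9.44 in Irx5-/- hearts, 10.10, 9.58, 9.53 and 9.59 in Irx3-/-;Irx5+/- hearts and 9.48, 9.45 and 8.98 in Irx5+/- hearts. Double mutant and Irx3-/-;Irx5+/- arrays lay above the Irx5+/- arrays, by 0.66 ± 0.25 and 0.40 ± 0.25 (limma, adjusted p = 0.269 and 1.00). Ndufs8, a neighbouring iron-sulfur subunit, stood at 9.59, 10.09, 10.07 and 9.94 in double mutants, 9.72, 10.31 and 9.53 in Irx5-/- hearts, 9.99, 9.74, 9.60 and 9.79 in Irx3-/-;Irx5+/- hearts and 9.75, 9.51 and 9.48 in Irx5+/- hearts. It had the smallest difference among the 6 core genes measured, 0.34 ± 0.18 in double mutants against Irx5+/- hearts (limma, adjusted p = 0.43), with overlapping arrays. The mitochondrially encoded core genes were not analysed here.

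Among accessory subunits of the peripheral arm, Ndufs6 binds zinc and is needed late in assembly, and its loss causes cardiomyopathy in mice. It measured 11.48, 11.69, 11.94 and 11.82 in double mutants, 11.27, 12.11 and 11.01 in Irx5-/- hearts, 11.67, 11.24, 10.95 and 11.27 in Irx3-/-;Irx5+/- hearts and 11.21, 10.60 and 10.53 in Irx5+/- hearts. All 4 double mutant arrays exceeded the Irx5+/- arrays, by 0.95 ± 0.25 on average (limma, adjusted p = 0.158). Ndufs4 encodes a subunit that stabilises the NADH-binding module and is mutated in Leigh syndrome in humans. Its values were 11.63, 11.86, 12.21 and 11.85 in double mutants, 11.65, 12.28 and 11.58 in Irx5-/- hearts, 11.76, 11.57, 11.32 and 11.43 in Irx3-/-;Irx5+/- hearts and 11.67, 10.98 and 10.78 in Irx5+/- hearts. Irx5+/- replicate 1 reached into the range of each mutant group, and the differences were 0.74 ± 0.22 in double mutants, 0.69 ± 0.24 in Irx5-/- hearts and 0.38 ± 0.22 in Irx3-/-;Irx5+/- hearts (limma, adjusted p = 0.186, 0.360 and 1.00).

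Ndufv3, a small accessory subunit, was at 11.11, 10.97, 11.48 and 10.83 in double mutants, 10.68, 11.40 and 10.73 in Irx5-/- hearts, 11.29, 11.06, 11.00 and 10.81 in Irx3-/-;Irx5+/- hearts and 10.48, 10.64 and 10.44 in Irx5+/- hearts. Every mutant array lay above every Irx5+/- array, as was also so for Ndufb11 and Ndufc2, with differences of 0.58 ± 0.19 in double mutants, 0.42 ± 0.20 in Irx5-/- hearts and 0.52 ± 0.19 in Irx3-/-;Irx5+/- hearts (limma, adjusted p = 0.211, 0.479 and 0.906). Ndufa9, a subunit of the ubiquinone module that binds NADPH, was at 11.38, 11.76, 11.89 and 11.73 in double mutants, 11.36, 12.12 and 11.46 in Irx5-/- hearts, 11.64, 11.58, 10.63 and 11.57 in Irx3-/-;Irx5+/- hearts and 11.63, 11.27 and 11.30 in Irx5+/- hearts. Its Irx3-/-;Irx5+/- mean lay at -0.04 ± 0.24 against Irx5+/- hearts, with replicate 3 well below the rest of its group. The other accessory genes of this arm, Ndufa2, Ndufa5, Ndufa6, Ndufa7 and Ndufa12, lay from 0.34 (Ndufa7) to 0.64 (Ndufa6) in double mutants, from 0.34 to 0.49 in Irx5-/- hearts and from 0.02 to 0.36 in Irx3-/-;Irx5+/- hearts. Over the whole peripheral arm, all 15 genes lay above 0 in double mutants and in Irx5-/- hearts, and 14 of 15 in Irx3-/-;Irx5+/- hearts, with Ndufa9 as the exception.

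**Figure D3:**
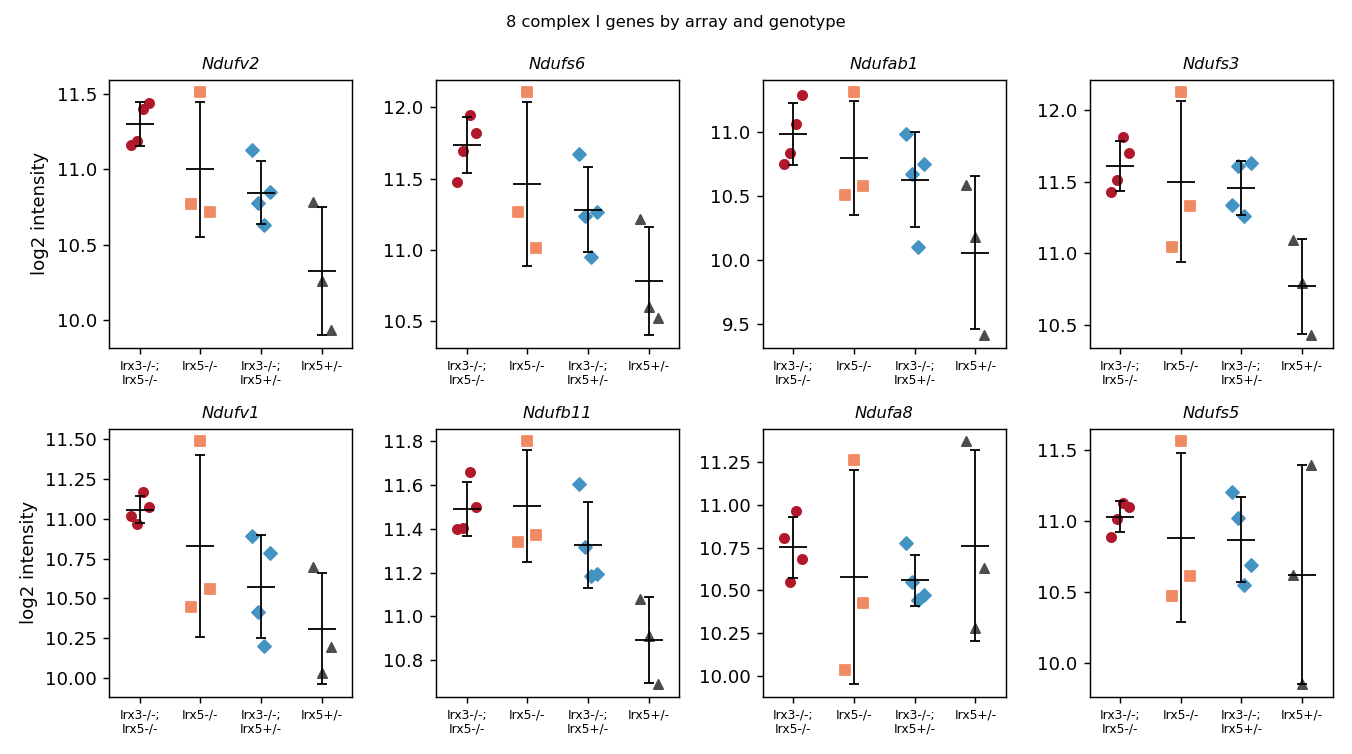
Log2 intensity of 8 complex I genes on each array (points), with the mean and SD of each genotype (bars), for double mutants, Irx5-/-, Irx3-/-;Irx5+/- and Irx5+/- hearts from left to right. Ndufv2, Ndufs6, Ndufab1, Ndufs3, Ndufv1 and Ndufb11 have all double mutant arrays above all Irx5+/- arrays, whereas in Ndufa8 and Ndufs5 an Irx5+/- array exceeds every double mutant array.

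In the membrane arm, the smallest differences are given array by array. Ndufa8 encodes a subunit with twin cysteine motifs on the side of the intermembrane space. It measured 10.81, 10.55, 10.97 and 10.68 in double mutants, 10.04, 11.26 and 10.43 in Irx5-/- hearts, 10.77, 10.55, 10.44 and 10.47 in Irx3-/-;Irx5+/- hearts and 11.38, 10.28 and 10.63 in Irx5+/- hearts. Irx5+/- replicate 1 was the highest of the 14 arrays, and the differences were -0.01 ± 0.27 in double mutants, -0.19 ± 0.29 in Irx5-/- hearts and -0.20 ± 0.27 in Irx3-/-;Irx5+/- hearts (limma, adjusted p = 0.991, 0.826 and 1.00), the lowest of any member in each genotype. Those values leaned on that array. Without it all 36 members, Ndufa8 included, lay above 0 in double mutants and in Irx5-/- hearts. In Irx3-/-;Irx5+/- hearts 35 of 36 did. Ndufb3, a small subunit at the far end of the membrane arm, measured 9.60, 9.87, 9.89 and 9.86 in double mutants, 9.29, 10.14 and 9.73 in Irx5-/- hearts, 9.78, 9.65, 9.04 and 9.42 in Irx3-/-;Irx5+/- hearts and 9.68, 9.38 and 9.76 in Irx5+/- hearts. Groups overlapped throughout, with differences of 0.20 ± 0.20 in double mutants, 0.12 ± 0.21 in Irx5-/- hearts and -0.13 ± 0.20 in Irx3-/-;Irx5+/- hearts.

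At the high end of that arm, chosen for naming after their values were seen, were 3 further genes. Ndufb11, an X-linked subunit whose mutation causes a heart muscle disease in humans, averaged 11.49 ± 0.12 in double mutants (SD, n = 4), 11.50 ± 0.26 in Irx5-/- hearts (n = 3), 11.33 ± 0.20 in Irx3-/-;Irx5+/- hearts (n = 4) and 10.89 ± 0.20 in Irx5+/- hearts (n = 3). Arrays of all 3 mutants lay above all Irx5+/- arrays, and its adjusted p of 0.252 in Irx5-/- hearts was the smallest of any member there. Ndufa3 and Ndufa10, both accessory subunits, lay at 0.78 ± 0.21 and 0.69 ± 0.18 in double mutants (limma, adjusted p = 0.164 and 0.156). Of the 18 membrane arm genes, 17 lay above 0 in double mutants and in Irx5-/- hearts and 16 in Irx3-/-;Irx5+/- hearts, Ndufa8 being the exception in all 3 and Ndufb3 in the last. Ndufa8 belongs to the subunits that are held by disulfide bonds in the intermembrane space, and the other such genes lay higher, with Ndufb7 at 0.64 ± 0.21, Ndufb10 at 0.45 ± 0.27 and Ndufs5 at 0.41 ± 0.32 in double mutants against Irx5+/- hearts. The 12 members that make up the rest of the arm, besides Ndufb3 and Ndufb9, lay from 0.44 (Ndufc2) to 0.78 (Ndufa3) in double mutants, from 0.37 (Ndufb2) to 0.61 (Ndufb11) in Irx5-/- hearts and from 0.21 (Ndufa13) to 0.52 (Ndufa11) in Irx3-/-;Irx5+/- hearts. Ndufa1, the other X-linked member, lay at 0.58 ± 0.23 in double mutants. The Xist signal was high on 3 of 4 double mutant, 1 of 3 Irx5-/-, 3 of 4 Irx3-/-;Irx5+/- and 2 of 3 Irx5+/- arrays. With a term for it 0 members were called, and as 0 were called without it, no call could be lost. The member medians against Irx5+/- hearts were then 0.57, 0.48 and 0.32 in double mutants, Irx5-/- and Irx3-/-;Irx5+/- hearts. At an unadjusted p under 0.05, 24, 17 and 7 were higher (7.67%, 6.28% and 2.76% of all genes), against 24, 13 and 8 without the term.

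Ndufab1, the acyl carrier protein that also serves lipoic acid synthesis, was at 10.75, 10.84, 11.06 and 11.29 in double mutants, 10.51, 11.32 and 10.58 in Irx5-/- hearts, 10.99, 10.67, 10.11 and 10.76 in Irx3-/-;Irx5+/- hearts and 10.59, 10.18 and 9.41 in Irx5+/- hearts. It had the largest difference of any member in Irx5-/- hearts, 0.74 ± 0.30 (limma, adjusted p = 0.42), and lay at 0.93 ± 0.28 in double mutants (adjusted p = 0.19), whose arrays lay above all Irx5+/- arrays. Ndufa6 and Ndufb9 encode the LYR-motif subunits to which this carrier protein binds, and they lay at 0.64 ± 0.26 and 0.68 ± 0.21 in double mutants (limma, adjusted p = 0.303 and 0.193). Ndufa4 was at 12.36, 12.51, 12.62 and 12.49 in double mutants, 12.12, 12.77 and 12.35 in Irx5-/- hearts, 12.57, 12.40, 12.16 and 12.41 in Irx3-/-;Irx5+/- hearts and 12.30, 12.16 and 12.26 in Irx5+/- hearts. Its SD over the 14 arrays, 0.188, was the smallest of any member, and its difference in double mutants was 0.25 ± 0.14 (limma, adjusted p = 0.47). Ndufa4l2, whose human counterpart is induced by hypoxia, stood out on 1 array, Irx3-/-;Irx5+/- replicate 1 at 8.47, against 6.77 to 7.68 on the other 13.

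Double mutants were also set against each of the other mutants, to ask what the further loss adds. Against Irx3-/-;Irx5+/- hearts, all 36 genes lay above 0 with a median of 0.26 and a range of 0.03 to 0.48, where 44.5% of all genes lay above 0. None was called in limma (0.00502% of all genes were, 1 gene), and 2 had an unadjusted p under 0.05, namely Ndufv2 and Ndufv1 (4.06% of all genes were higher at that level). In 3 all double mutant arrays lay above all Irx3-/-;Irx5+/- arrays and in 0 all lay below, against 2.64% and 2.18% of all genes. Ndufv1 at 0.48 ± 0.22, Ndufs6 at 0.45 ± 0.23 and Ndufv2 at 0.45 ± 0.20 were the largest. With an array left out, the count of 2 ran from 0 (without Irx3-/-;Irx5+/- replicate 2 or double mutant replicate 4) to 5 (without Irx5+/- replicate 1). Of all genes 3.22%, 3.10% and 4.41% were higher in those fits. Without Irx3-/-;Irx5+/- replicate 4, whose labels disagree, the count was 1 (3.78% of all genes), with a member median of 0.26. Against Irx5-/- hearts, 34 of 36 lay above 0 with a median of 0.12, against 52.8% of all genes. None had an unadjusted p under 0.05 (1.50% of all genes were higher at that level) and 0 were called in limma (0% of all genes). That median was 0.40 without Irx5-/- replicate 2, where 10 had an unadjusted p under 0.05 (3.09% of all genes were higher), and -0.0017 without Irx5-/- replicate 1. The interaction, which is the difference made by Irx3 loss in Irx5-/- hearts minus that in Irx5+/- hearts, had a median of -0.18 with 4 of 36 above 0, where 50.3% of all genes were. It called 0 members and 0% of all genes in limma, and 1 member, Ndufb11 at -0.45 ± 0.20, was lower at an unadjusted p under 0.05, where 2.16% of all genes were, a share near that of the members. It had a median of 0.08 without Irx5-/- replicate 2, with 23 of 36 above 0, and of -0.07 without Irx5+/- replicate 3, with 13 of 36 above 0. Without Irx3-/-;Irx5+/- replicate 4 its median was -0.21, with 5 of 36 above 0.

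Complex I genes varied together over the 14 arrays, apart from a few. The correlation of each gene with the mean of the other 35 ran from 0.389 to 0.982, as a description of arrays that share genotype and processing. Ndufs6 had the highest (0.982), followed by Ndufc1 (0.972), and Ndufs6 and Ndufab1 also moved most, by 1.522 and 1.521 units for each unit of the other members' mean. Ndufa7 (0.389), Ndufa4l2 (0.531), Ndufs5 (0.537) and Ndufa8 (0.564) followed the rest least, and they were picked out after their values were seen. Ndufs5, another subunit with cysteine motifs at the intermembrane space, was at 10.89, 11.01, 11.13 and 11.10 in double mutants, 10.47, 11.56 and 10.61 in Irx5-/- hearts, 11.21, 11.02, 10.55 and 10.69 in Irx3-/-;Irx5+/- hearts and 10.62, 9.85 and 11.39 in Irx5+/- hearts. Irx5+/- replicate 3, the lowest array for most members, was the highest of its group for Ndufs5. Ndufa7, an accessory subunit of the NADH-binding module, was at 10.19, 10.45, 9.89 and 10.48 in double mutants, 10.18, 10.59 and 10.00 in Irx5-/- hearts, 9.57, 9.99, 10.28 and 9.91 in Irx3-/-;Irx5+/- hearts and 10.13, 9.67 and 9.94 in Irx5+/- hearts, with Irx3-/-;Irx5+/- replicate 1 lowest of the 14 where the other members' mean was among the higher ones.

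With the sarcomere mean the correlation of single members ran from 0.32 (Ndufs5) to 0.972 (Ndufb9), with a median of 0.886. It was above 0.8 for 27 of 36 members, against 2.619% of all genes (522). When the sarcomere mean of every array entered the limma fit as a term, the median difference from Irx5+/- hearts was 0.05 in double mutants, 0.07 in Irx5-/- hearts and -0.04 in Irx3-/-;Irx5+/- hearts, and 22, 23 and 13 of 36 members lay above 0. No member was called with the term, and 0% of all genes were in these comparisons. In double mutants Ndufv2 was the highest member at 0.34, in Irx5-/- hearts Ndufb11 at 0.35 and in Irx3-/-;Irx5+/- hearts Ndufv3 at 0.32. Ndufa8 was the lowest each time, at -0.62 in double mutants, -0.64 in Irx5-/- hearts and -0.63 in Irx3-/-;Irx5+/- hearts. Of the 6 core genes measured Ndufs1 was lowest, at -0.32 in double mutants, -0.23 in Irx5-/- hearts and -0.33 in Irx3-/-;Irx5+/- hearts. Accessory genes besides Ndufa8 lay lower than Ndufs1 in each, such as Ndufb2 at -0.33 in double mutants and -0.30 in Irx5-/- hearts and Ndufa9 at -0.44 in Irx3-/-;Irx5+/- hearts. At an unadjusted p under 0.05 there was 1 higher and 1 lower member in double mutants (4.52% and 3.64% of all genes), 1 and 1 in Irx5-/- hearts (4.95% and 3.78%) and 0 and 2 in Irx3-/-;Irx5+/- hearts (2.95% and 2.91%). The sarcomere mean itself differed from Irx5+/- hearts by 1.08 in double mutants, 0.80 in Irx5-/- hearts and 0.76 in Irx3-/-;Irx5+/- hearts, so the term and the genotype cannot be told apart by this fit. Those gaps leaned on Irx5+/- replicate 3. The median over the 31 sarcomere genes was 1.16, 0.90 and 0.77 in the same order, and 0.73, 0.31 and 0.32 without that array. Without both arrays that stand apart it was 0.73, -0.01 and 0.32, with 31, 14 and 30 of 31 above 0. With either array that stands apart left out, or both, the medians with the term lay from 0.05 to 0.13 in double mutants, from 0.03 to 0.11 in Irx5-/- hearts and from -0.02 to 0.01 in Irx3-/-;Irx5+/- hearts, 0 members were called, and Ndufa8 lay from -0.70 to -0.44. Each of those fits kept Irx5+/- replicate 1, on which the Ndufa8 signal was highest.

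**Figure D4:**
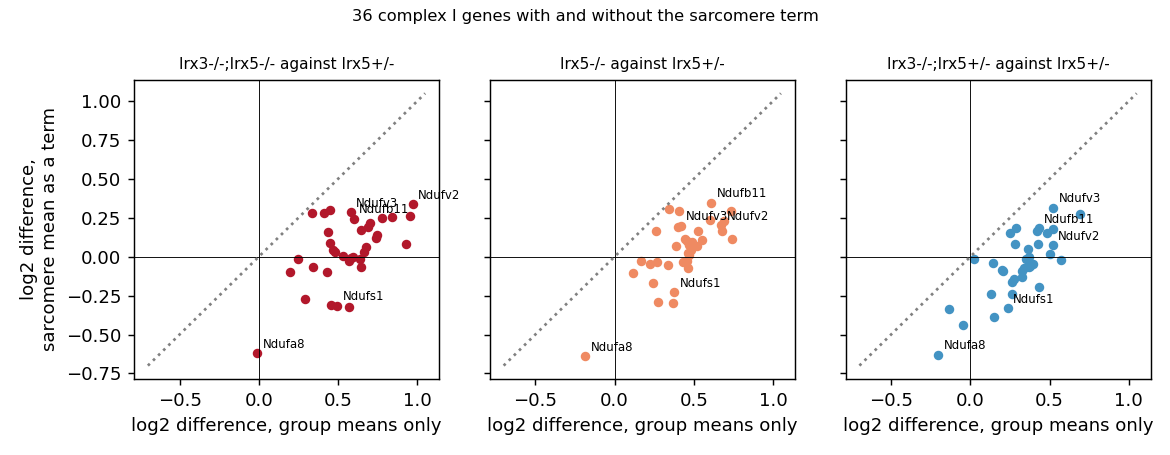
Log2 difference from Irx5+/- hearts with a term for the sarcomere mean of the array (vertical axis) against that without it (horizontal axis) for 36 complex I genes, in double mutants (left), Irx5-/- hearts (middle) and Irx3-/-;Irx5+/- hearts (right); the dotted line marks equal values. Points lie below the line and around 0 on the vertical axis, with medians of 0.05, 0.07 and -0.04, and Ndufa8 is lowest in each panel.

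Genes that build and accompany complex I were taken from lists set down for this comparison. Of 16 assembly factors 15 were measured, with medians of 0.38 in double mutants, 0.34 in Irx5-/- hearts and 0.29 in Irx3-/-;Irx5+/- hearts against Irx5+/- hearts, and 14, 14 and 12 of 15 above 0, where 43.9%, 44.4% and 50.0% of all genes were. None was called in limma, where 0.0201%, 0% and 0% of all genes were. At an unadjusted p under 0.05, 6, 4 and 3 were higher, against 7.90%, 5.99% and 2.85% of all genes. Without both arrays that stand apart, the medians were 0.36, 0.10 and 0.25 and these counts 7, 0 and 2 (6.84%, 4.34% and 2.73% of all genes). The largest of those named was Ndufaf6, which acts in early assembly of the complex, at 0.92 ± 0.24 in double mutants, 0.67 ± 0.26 in Irx5-/- hearts and 0.71 ± 0.24 in Irx3-/-;Irx5+/- hearts (SE). Acad9, part of the assembly complex of the membrane arm, lay at 0.44 ± 0.13 in double mutants, 0.42 ± 0.14 in Irx5-/- hearts and 0.35 ± 0.13 in Irx3-/-;Irx5+/- hearts. The mean of the assembly factors correlated with the complex I mean at r = 0.956 over the 14 arrays.

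Subunits of the other respiratory complexes and ATP synthase, 40 of 42 measured, had medians of 0.58 in double mutants, 0.43 in Irx5-/- hearts and 0.33 in Irx3-/-;Irx5+/- hearts, with all 40 above 0 each time. Their medians were thus close to those of complex I (0.58, 0.45 and 0.33), and their mean correlated with the complex I mean at r = 0.989. None was called in limma, and 33, 14 and 9 of 40 were higher at an unadjusted p under 0.05, against the same shares of all genes, 7.90%, 5.99% and 2.85%. Without Irx5+/- replicate 3 those counts were 15, 1 and 1 (5.89%, 4.72% and 2.35% of all genes). Without Irx5-/- replicate 2 they were 36, 1 and 17 (8.67%, 4.34% and 3.44% of all genes). Without both arrays the medians were 0.42, 0.04 and 0.19. Cox6a2, the muscle form of a cytochrome c oxidase subunit, lay at 1.45 ± 0.36 in double mutants, 1.04 ± 0.39 in Irx5-/- hearts and 0.94 ± 0.36 in Irx3-/-;Irx5+/- hearts (SE), and Atp5k, a subunit of ATP synthase, at 0.85 ± 0.18 in double mutants, 0.72 ± 0.19 in Irx5-/- hearts and 0.64 ± 0.18 in Irx3-/-;Irx5+/- hearts. The 16 regulators of mitochondrial biogenesis had medians of 0.15 in double mutants, 0.09 in Irx5-/- hearts and 0.09 in Irx3-/-;Irx5+/- hearts, with 9, 12 and 11 of 16 above 0, 0 called and 4, 1 and 0 higher at an unadjusted p under 0.05. Over all genes 43.9%, 44.4% and 50.0% lay above 0 and 7.90%, 5.99% and 2.85% were higher at that level. Without Irx5+/- replicate 3 the counts of 4, 1 and 0 were 1, 0 and 0 (5.89%, 4.72% and 2.35% of all genes). The mean of the regulators correlated with the complex I mean at r = 0.872 over 14 arrays. Without Irx5+/- replicate 3 and Irx5-/- replicate 2, r was 0.753. The regulators named here were taken by their small p in limma. Ppargc1a, the coactivator PGC-1α, lay at 1.23 ± 0.48 in double mutants, 0.97 ± 0.51 in Irx5-/- hearts and 0.81 ± 0.48 in Irx3-/-;Irx5+/- hearts. Esrrg, an orphan nuclear receptor of cardiac oxidative genes, lay at 0.90 ± 0.40 in double mutants, 0.94 ± 0.42 in Irx5-/- hearts and 0.67 ± 0.40 in Irx3-/-;Irx5+/- hearts. With the sarcomere term the medians of the other respiratory complexes were 0.01 in double mutants, 0.02 in Irx5-/- hearts and -0.05 in Irx3-/-;Irx5+/- hearts.

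Because the members varied together, their promoters were searched for letters bound by known regulators of nuclear genes for mitochondrial proteins. A RefSeq table of the build GRCm38.p6 gave 34 promoters for 32 of the 36 members, each of 300 bases, with 250 before and 50 after the start of the gene. Both strands were searched, and motifs could overlap. The letters of the factor NRF1 (GCGC, any base, TGCGC) stood in 20.6% of member promoters, against 4.6% of all 32851 promoters in the table. ATGGCGG, letters of YY1, stood in 26.5% against 4.1%, CCGGAAG of ETS factors such as GABP in 11.8% against 8.9%, and AAGGTCA of ERR receptors in 5.9% against 4.7%. At least 1 of these stood in 55.9% of member promoters and 19.7% of all. Ndufa5 and Ndufa7 entered with overlapping windows, each of which was counted. Letters before and after the start of the gene were not told apart. These shares are a description of letters, and no binding was measured.

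The promoters of 3 genes are shown, chosen after their values were seen. Ndufs6 was the gene that followed the others most closely. With all arrays, Ndufv2 had the largest difference in double mutants and Ndufa8 the smallest. They are printed 5′ to 3′ on the strand of the gene, with motif letters in capitals. Ndufs6 (chr13:73328433-73328732, minus strand) holds the NRF1 letters from base 235 and the YY1 letters from base 287 of the window, the latter after the start of the gene. Ndufv2 (chr17:66101510-66101809, minus strand) holds none of those searched. Ndufa8 (chr2:36049289-36049588, minus strand) holds the NRF1 letters from base 221.
Ndufs6: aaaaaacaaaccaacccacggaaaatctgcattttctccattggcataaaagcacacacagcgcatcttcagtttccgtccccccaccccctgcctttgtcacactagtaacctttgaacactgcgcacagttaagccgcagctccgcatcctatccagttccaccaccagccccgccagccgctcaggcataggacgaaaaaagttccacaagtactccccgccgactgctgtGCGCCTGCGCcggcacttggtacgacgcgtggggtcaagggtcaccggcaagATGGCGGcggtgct
Ndufv2: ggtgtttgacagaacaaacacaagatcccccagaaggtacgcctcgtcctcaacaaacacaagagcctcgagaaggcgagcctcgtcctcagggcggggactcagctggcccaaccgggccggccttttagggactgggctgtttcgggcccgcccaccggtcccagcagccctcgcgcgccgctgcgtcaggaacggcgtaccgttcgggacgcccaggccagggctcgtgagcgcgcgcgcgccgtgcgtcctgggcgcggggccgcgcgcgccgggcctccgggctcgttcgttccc
Ndufa8: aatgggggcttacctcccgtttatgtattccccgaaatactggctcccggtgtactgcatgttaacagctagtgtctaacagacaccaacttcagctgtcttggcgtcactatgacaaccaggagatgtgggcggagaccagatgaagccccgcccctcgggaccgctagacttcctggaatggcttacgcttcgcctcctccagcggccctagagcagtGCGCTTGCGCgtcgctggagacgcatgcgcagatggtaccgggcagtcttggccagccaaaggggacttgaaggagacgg
The gene that followed the others most and the gene with the lowest difference thus both hold the NRF1 letters, and the gene with the largest difference holds none of the 4.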

How the data were processed

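The authors deposited log2 intensities, made per probe set with RMA over all arrays together in the R package affy, with a floor of 3 for group means, per the file headers. Software versions were not given in the sources used. Total RNA was amplified from a small input before labelling, per the labels' protocols. No scaling was added, and values ran from 2.43 to 14.2, with array medians of 7.89 to 7.99 and correlations between arrays of 0.953 to 0.986. Intensities are not counts, so the number of arrays and not a depth limits the precision.

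Of 28763 probe sets, 21776 carry 1 gene symbol, 1592 several and 5395 none, and 21685 were matched by gene ID to the RefSeq table of GRCm38.p6, used for names and promoters. No source used here names the build of the array annotation. Keeping for each gene the probe set with the highest mean left 19931 genes, of which 998 had several.

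Tests were limma 3.58.1 in R 4.3.3 on all 14 arrays with a mean per group (10 residual and 3.5 prior degrees of freedom, median residual SD 0.186), 2-sided, with Benjamini-Hochberg adjustment over all genes. A gene was called at an adjusted p under 0.05. Standard errors are of that fit. The fit was tested on simulated data. Alternatives were each array left out, the replicate number as a block, the sarcomere mean, Xist, scaling, probe set choice, array weights and the variance model.

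The members and lists were chosen with earlier results of these data known, so lists are given as counts and medians with no test. Values on every array are given for the 6 nuclear core genes measured and for the 3 largest and 3 smallest differences in each comparison with Irx5+/- hearts.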

Additional observations from a re-analysis of the deposited data

Results flagged for a closer look

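In groups of 4 arrays, a gene was marked where the gap between the highest or lowest array and its nearest neighbour was a larger share of the group's range than Dixon's 95% critical value allows. The check ran on 72 groups of values of the 36 members and 4 of the complex I and sarcomere means, 76 in all, of which 3 were marked, and chance marks about 1 in 20. Ndufa9, a subunit of the ubiquinone module, was low on Irx3-/-;Irx5+/- replicate 3 at 10.63, where the other arrays of the group lay at 11.64, 11.58 and 11.57. Ndufb3, a membrane arm subunit, was low on double mutant replicate 1 at 9.60, where the others lay at 9.87, 9.89 and 9.86. Ndufs7, the core subunit next to ubiquinone, was high on Irx3-/-;Irx5+/- replicate 1 at 10.10, where the others lay at 9.58, 9.53 and 9.59.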

How the results depend on the processing

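The count of called members was 0 in each of the 6 comparisons and in the F test under each alternative tried, with 1 exception, Ndufv2 in double mutants against Irx5+/- hearts without Irx5-/- replicate 2 (count 1, range 0 to 1 with an array left out). In that setting 42 of all 19931 genes were called. With an array left out, the median difference from Irx5+/- hearts ran from 0.43 to 0.75 in double mutants, from 0.19 to 0.64 in Irx5-/- hearts and from 0.20 to 0.50 in Irx3-/-;Irx5+/- hearts. It ran from 0.18 to 0.35 for double mutants against Irx3-/-;Irx5+/- hearts, from -0.0017 to 0.40 against Irx5-/- hearts and from -0.34 to 0.08 for the interaction. With the sarcomere mean as a term the medians against Irx5+/- hearts were 0.051, 0.074 and -0.045 in double mutants, Irx5-/- and Irx3-/-;Irx5+/- hearts, and the cause was not tested. Without both Irx5+/- replicate 3 and Irx5-/- replicate 2, an alternative chosen after seeing the data, the median was 0.077 for Irx5-/- against Irx5+/- hearts, 0.40 for double mutants against Irx5-/- hearts and 0.20 for the interaction. Array medians subtracted, quantile normalization, array weights, a term for Xist, dim genes left out, another variance model, the mean of all probe sets, all probe sets of the table and a fit on 2 groups alone moved no median by more than 0.263, the pooled SD of the complex I mean within groups. That mark is larger than the medians of double mutants against the other mutants and of the interaction, so those could vanish without counting as moved. Quantile normalization gave medians of 0.49, 0.33 and 0.32 in double mutants, Irx5-/- and Irx3-/-;Irx5+/- hearts against Irx5+/- hearts. Over all genes, the 4 called in double mutants against Irx5+/- hearts became 0 to 42 with an array left out and 0 to 15 otherwise. The 1 called against Irx3-/-;Irx5+/- hearts became 0 with any array left out and 0 to 5 otherwise. With the replicate number as a block, the medians were 0.59, 0.45 and 0.34 in double mutants, Irx5-/- and Irx3-/-;Irx5+/- hearts against Irx5+/- hearts, 0 members were called, and 23, 11 and 4 had an unadjusted p under 0.05 (6.59%, 5.59% and 2.43% of all genes were higher). Arrays of the same number did not deviate together: of 19 such pairs 4 correlated above 0.1, from -0.179 to 0.191, so the numbers were not taken as pairs. The number of arrays limits the precision, and intensities carry no read depth.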

Other observations

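Of the 36 members, 5 had a second probe set, which was not used in the comparisons. Over the 14 arrays it correlated with the probe set used at 0.995 for Ndufab1, 0.992 for Ndufs3, 0.983 for Ndufa11, 0.92 for Ndufc1 and 0.817 for Ndufb11. For Ndufab1 the second probe set averaged 10.98 in double mutants, 10.80 in Irx5-/- hearts, 10.66 in Irx3-/-;Irx5+/- hearts and 10.02 in Irx5+/- hearts, close to the one used. For Ndufb11 it averaged 9.79, 9.87, 9.53 and 9.33 in the same order, so the Irx5+/- hearts were lowest on both. Probe sets that name Ndufb4 together with Ndufb4b, or Ndufs5 together with the pseudogene Ndufs5-ps, carry several symbols and were not analysed here.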
